A study of Homo sapiens with 6 samples.

Results

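Replacement histone variants and linker histones were taken as 10 genes, of which 9 are described, chosen by their older symbols in the deposited count table, which holds 39293 genes with one line per name. The 9 are H2AFX, H2AFZ, H2AFV, H2AFJ, H2AFY and H2AFY2 for variants of histone H2A, H3F3A and H3F3B for histone H3.3, and H1FX for a linker histone. All 10 were found and all 10 passed the low-count filter. Poly(A) RNA was sequenced from SW480, an established human colorectal cancer cell line. Cells in 3 wells received dihydroartemisinin (DHA, an artemisinin derivative) at 20 µg/mL for 4 h, and cells in 3 control wells received 0.1% DMSO for 4 h. The DMSO content of the DHA wells is not stated, and a single cell line was used, so the values describe SW480 cells in wells whose separate origin is not stated.

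Most histone genes are transcribed mainly in S phase, and their messages end in a stem-loop in place of a poly(A) tail. Replacement variants are made throughout the cell cycle from polyadenylated messages and enter chromatin outside replication, with the help of dedicated chaperones. Linker histones of the H1 family bind where DNA enters and leaves the nucleosome.

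After 4 h of DHA, 5 of the 9 genes were higher, 3 were lower and 1 did not pass the threshold, an adjusted p of 0.05 from edgeR (quasi-likelihood test, Benjamini-Hochberg over 15811 genes). Of all genes tested, 59.6% passed, 29.6% higher and 30.1% lower in DHA, so a pass is common in these data. Higher were H2AFX, H2AFZ, H2AFJ, H3F3B and H1FX, whose call was lost without any of 3 single libraries. Lower were H2AFV, H2AFY and H2AFY2. The log2 fold changes of DHA over control ran from -0.72 for H2AFV to 0.94 for H1FX, with a median of 0.32, against a median of 0.01 over all genes tested, and 0 of the 9 changed by 2-fold or more. In CPM (counts scaled to the library total), the groups did not overlap for 7 of the 9 genes, 4 higher and 3 lower in DHA, against 65.5% of all genes tested, 27.0% higher and 38.4% lower. The authors' deposited table of genes past a 2-fold change lists 0 of the 9. With limma on log2(CPM + 1), which uses library totals, 3400 genes were higher and 5469 lower in DHA, against 4674 higher and 4757 lower in the edgeR test.

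**Figure D1:**
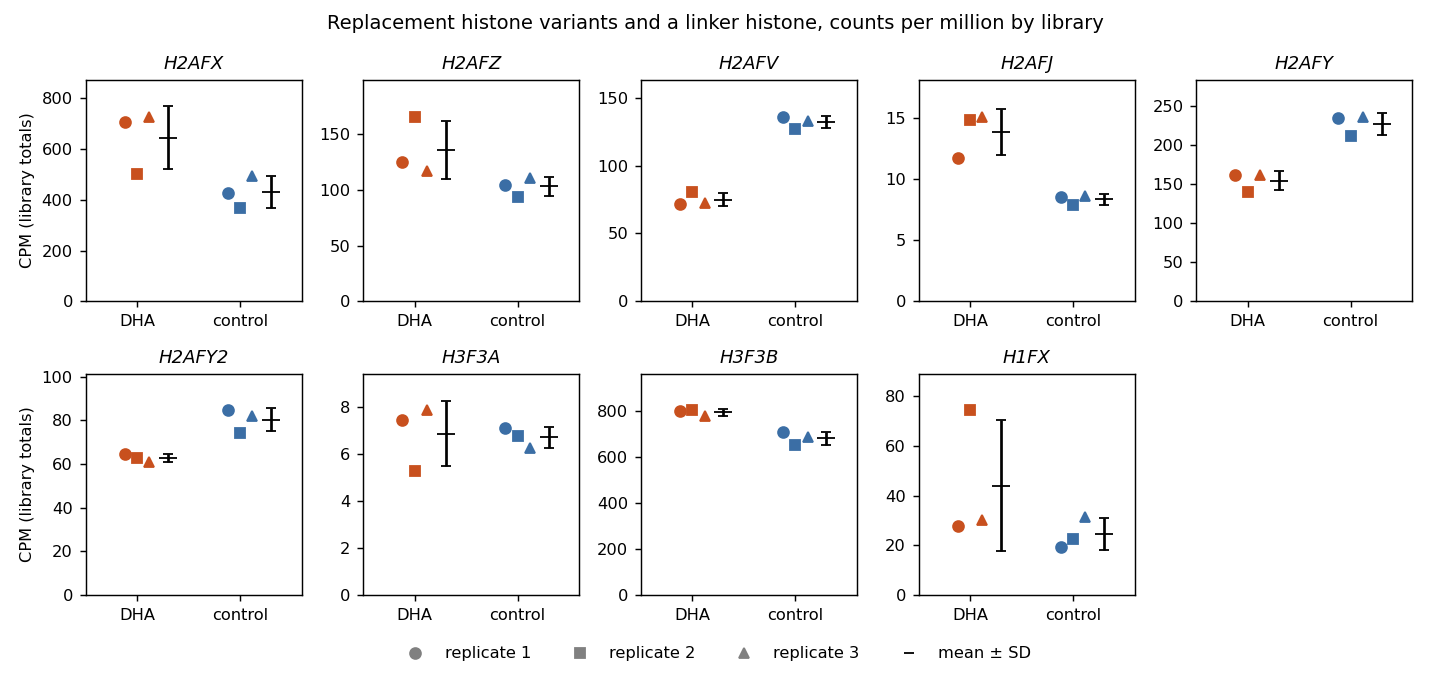
CPM by library totals (y axis) of each gene in the 3 DHA libraries and the 3 control libraries, with marker shapes for replicate numbers and a bar for the mean ± SD of a group. H2AFV and H2AFY sat clearly lower in all DHA libraries, and the DHA library of replicate 2 stood apart for H2AFX, H2AFZ and H1FX.

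The libraries held 14291726 to 18938456 counts each. The DHA library of replicate 2 stood apart from the other DHA libraries, with a chi-square per gene of 14.6 and 14.7 against them and 1.65 between those 2, while control pairs gave 3.25 to 8.64 and pairs across the groups 106 to 138. The title of that library reads DNA where those of the other treated libraries read DHA, and its treatment label gives dihydroartemisinin, which was followed. Of 11 colorectal epithelial markers, 7 averaged at least 1 CPM, namely KRT8, KRT18, KRT19, KRT20, EPCAM, CDH1 and CDX2. CDX1 was at 0, and VIL1, CDH17 and LGALS4 were low, reaching at most 1.08, 0.42 and 0.54 CPM. The sum over the 11 was 5477 to 5623 CPM in DHA libraries and 4241 to 4636 CPM in control libraries. KRT8, KRT18 and KRT19 were higher in every DHA library. CDH1 was lower, at 74.3 to 79.9 CPM in DHA and 93.2 to 108 CPM in control libraries, and EPCAM, CDX2 and KRT20 overlapped. Summed leukocyte markers were at 3.54 to 6.02 CPM in DHA and 0.506 to 1.0 CPM in control libraries, with 1 of 5 at an average of at least 1 CPM (CD14) and PTPRC at 0. Fibroblast markers summed to 70.6 to 93.1 CPM in DHA and 21.0 to 29.6 CPM in control libraries, nearly all of it COL1A1, the 1 marker of 5 that reached 1 CPM, with COL1A2, DCN and LUM at 0. The part of these markers in the results was not tested. Of 4 endothelial markers, 1 reached an average of 1 CPM, and their sums were 1.08 to 2.04 CPM in DHA and 1.26 to 2.09 CPM in control libraries. Fewer cells and less RNA per cell cannot be told apart in such bulk libraries.

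The promoters of 5 of these genes are shown because 4 of them hold TATAAA, the letters of the TATA box at which the basal transcription machinery can bind, and the other belongs to H2AFV, the closest relative of H2AFZ, which moved the other way. RefSeq (GRCh38.p14) gave 13 promoter windows for these 9 genes, from 250 bases before to 50 bases after a start site. TATAAA, searched on both strands, was found in windows of H2AFX, H2AFZ, H3F3B and H1FX, and in 11.5% of all 35116 promoter windows. It began 31 bases before the start in H2AFX, H2AFZ and H1FX and 29 bases before it in H3F3B. These 4 genes are 4 of the 5 that were higher in DHA, H2AFJ being the other, and no window of H2AFV, H2AFY or H2AFY2 held these letters. A link of the letters with the direction of change was not tested. The 11.5% is a share of windows rather than of genes, and it is not split by direction. With an offset for GC content and exon length, 3 genes were higher (H2AFZ, H2AFJ and H3F3B), of which 2 hold TATAAA, since H2AFX at -0.01 and H1FX at 0.09 did not pass. CCAAT, likewise on both strands, was found in 7 of the 9 genes and in 34.6% of all windows, with 4 matches each in H2AFX, H2AFV and H3F3B and 3 each in H2AFZ and H2AFJ. A match is a description of the letters and not evidence of binding. Capitals mark TATAAA and CCAAT on either strand, and each sequence runs 5′ to 3′ on the strand of its gene.
H2AFX (RefSeq H2AX, chr11:119095416-119095715, minus strand): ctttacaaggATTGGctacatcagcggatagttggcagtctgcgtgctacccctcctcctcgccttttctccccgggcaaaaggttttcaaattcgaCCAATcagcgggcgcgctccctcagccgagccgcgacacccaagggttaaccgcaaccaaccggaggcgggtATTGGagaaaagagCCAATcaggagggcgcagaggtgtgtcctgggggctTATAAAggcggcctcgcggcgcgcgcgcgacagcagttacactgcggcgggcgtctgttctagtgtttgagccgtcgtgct
H2AFZ (RefSeq H2AZ1, chr4:99950226-99950525, minus strand): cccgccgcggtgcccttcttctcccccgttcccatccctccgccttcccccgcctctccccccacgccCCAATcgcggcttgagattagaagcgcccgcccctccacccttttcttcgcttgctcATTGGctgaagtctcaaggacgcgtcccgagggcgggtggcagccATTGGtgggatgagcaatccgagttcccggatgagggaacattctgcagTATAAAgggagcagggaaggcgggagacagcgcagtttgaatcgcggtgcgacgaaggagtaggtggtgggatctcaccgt
H3F3B (RefSeq H3-3B, chr17:75779730-75780029, minus strand): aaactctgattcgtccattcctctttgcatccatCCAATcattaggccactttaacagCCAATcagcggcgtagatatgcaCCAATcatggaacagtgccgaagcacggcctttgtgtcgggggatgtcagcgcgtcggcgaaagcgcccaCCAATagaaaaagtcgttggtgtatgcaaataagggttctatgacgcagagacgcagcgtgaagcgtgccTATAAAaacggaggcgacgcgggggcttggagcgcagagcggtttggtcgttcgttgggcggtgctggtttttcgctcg
H1FX (RefSeq H1-10, chr3:129316237-129316536, minus strand): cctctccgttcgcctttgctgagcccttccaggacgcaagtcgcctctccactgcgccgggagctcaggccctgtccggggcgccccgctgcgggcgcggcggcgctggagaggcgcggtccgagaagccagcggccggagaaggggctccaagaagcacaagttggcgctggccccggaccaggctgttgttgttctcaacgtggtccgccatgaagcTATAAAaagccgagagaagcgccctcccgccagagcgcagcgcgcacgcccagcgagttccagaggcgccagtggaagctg
H2AFV (RefSeq H2AZ2, chr7:44848038-44848337, minus strand): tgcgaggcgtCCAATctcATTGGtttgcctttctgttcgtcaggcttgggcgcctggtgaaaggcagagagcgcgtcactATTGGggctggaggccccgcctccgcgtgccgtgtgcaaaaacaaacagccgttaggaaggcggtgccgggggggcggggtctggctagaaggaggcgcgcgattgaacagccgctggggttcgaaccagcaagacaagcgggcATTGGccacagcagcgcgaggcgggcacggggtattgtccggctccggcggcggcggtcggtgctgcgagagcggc

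H2AFX encodes H2A.X, the variant that is phosphorylated in chromatin around DNA double-strand breaks. It lies on chromosome 11, 119093854 to 119095467 (GRCh38), has at most 2 annotated exons, and its longest transcript is 66.4% GC. H2AFX had 706, 501 and 727 CPM in the DHA libraries of replicates 1, 2 and 3, against 428, 369 and 493 CPM in the control libraries. All DHA libraries lay above all control libraries, but the DHA library of replicate 2 lay close to the highest control. The log2 fold change was 0.68 ± 0.14 (SE, n = 3 per group), with an adjusted p of 0.00158 in edgeR's test, and 0.87 without the DHA library of replicate 2. With an offset for GC content and exon length it was -0.01 ± 0.17, and the call ended at an adjusted p of 0.974.

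The GC content of genes moved with the treatment and with that library. Among 394 protein-coding genes over 65% GC with a mean of at least 5 CPM, the median level relative to each gene's own mean over the 6 libraries was 0.08, 0.35 and 0.12 (log2) in DHA replicates 1, 2 and 3, and -0.20, -0.27 and -0.11 in control replicates 1, 2 and 3. The median log2 fold change of that class was 0.52, and it was -0.40 for 1758 genes of at most 40% GC. H2AFX and H1FX, at 66.4% and 68.6%, are the members in the first of these classes. Within the DHA group, H2AFX was lowest in replicate 2, at 501 CPM against 706 and 727 CPM, where the median of its class was highest. H1FX was highest there, at 74.3 CPM against 27.7 and 30.1 CPM. The part of GC content in either change was not tested. The other members span 40.5% to 53.3% GC.

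**Figure D2:**
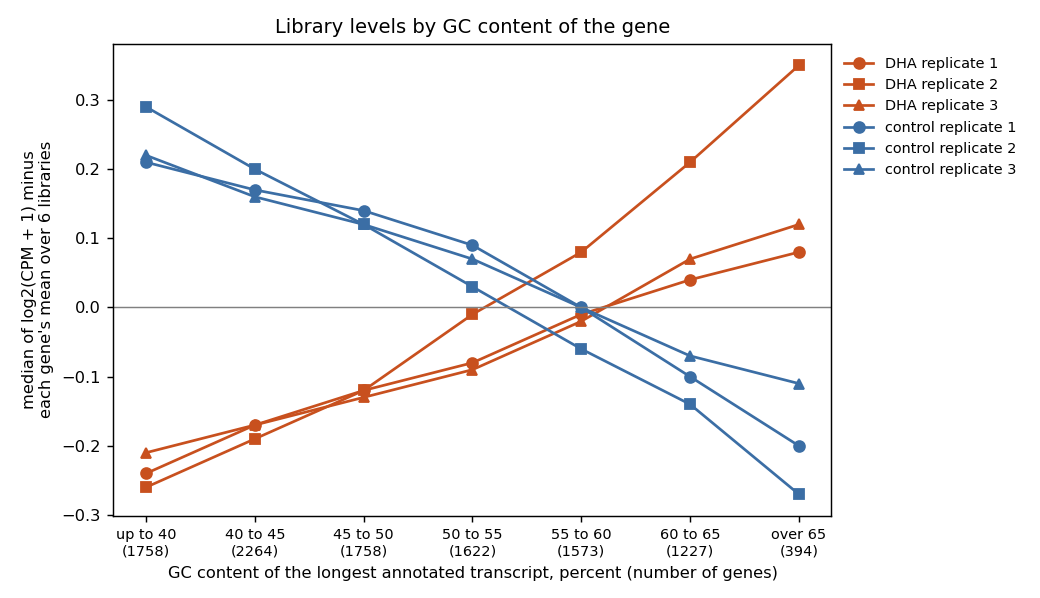
Median level of protein-coding genes in each library (y axis, log2(CPM + 1) minus the gene's mean over the 6 libraries) by GC content of the longest annotated transcript (x axis, percent, with the number of genes). DHA libraries rise and control libraries fall along the axis, and DHA replicate 2 reaches 0.35 in the class over 65% GC, above 0.08 and 0.12 in the other DHA libraries.

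The H2AFX message also carries the histone stem-loop, the 3′ end signal of replication-dependent histone messages. A search of annotated protein-coding transcripts for the stem-loop consensus found it in 66 of 19684 genes (0.335%). It was found in 32 of 71 replication-dependent histone genes and in 1 of the 9 genes described here, H2AFX. A match needs an annotated transcript that reaches the stem-loop. HIST1H2BK, annotated with 381 bases, gave no match, so the 32 need not be all genes that carry it. In transcript H2AFX-202 the stem-loop spans bases 555 to 570 of 1614, so the annotated transcript runs past it to a later poly(A) end. Libraries of poly(A) RNA may miss H2AFX messages that end at the stem-loop. The same element of HIST2H2BE, whose annotated transcript also extends past the stem-loop, is shown beside it, and capitals mark the stem and its loop.
H2AFX: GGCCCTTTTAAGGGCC
HIST2H2BE: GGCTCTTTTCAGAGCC

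H2AFZ and H2AFV encode H2A.Z.1 and H2A.Z.2, closely related forms of H2A.Z, a variant placed at promoters and regulatory elements. The genes lie on chromosome 4, 99948086 to 99950388, and chromosome 7, 44826791 to 44848083. H2AFZ had 125, 166 and 117 CPM in DHA replicates 1, 2 and 3, against 105, 93.7 and 111 CPM in the controls. H2AFV had 71.9, 80.8 and 72.1 CPM in DHA replicates 1, 2 and 3, against 136, 127 and 133 CPM in the controls. The groups of each gene did not overlap, with H2AFZ higher and H2AFV lower in every DHA library. H2AFZ rose by 0.50 ± 0.11 on the log2 scale (adjusted p = 0.00246, edgeR), and H2AFV fell by 0.72 ± 0.07 (adjusted p = 4.21e-06, edgeR). H2AFV passed under all 15 alternative settings, with values from -0.82 to -0.50, while H2AFZ passed under 14 of 15, from 0.28 to 0.59.

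The balance between both H2A.Z genes can be read within a library, where scaling has no part. A trend with GC content or length stays in such a ratio. With the GC and length offset, the log2 fold changes were 0.29 for H2AFZ and -0.50 for H2AFV, against 0.50 and -0.72 without it. H2AFZ had 1.74, 2.06 and 1.63 times the counts of H2AFV in DHA replicates 1, 2 and 3, against 0.768, 0.739 and 0.837 times in the controls. More counts thus came from H2AFZ in every DHA library and from H2AFV in every control library. The mean log2 ratio was 0.85 ± 0.17 in DHA and -0.36 ± 0.09 in control libraries (SD, n = 3), a difference of 1.21. The exact 2-sided permutation test gave p = 0.1, the smallest that 3 against 3 allows, and 0.167 after adjustment over 5 such ratios. The ratio is one of counts, so it does not compare molecules, since the annotated exons of H2AFZ cover 2.30 kb and those of H2AFV 4.75 kb.

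H2AFJ encodes H2A.J, known for building up in senescent human fibroblasts. On chromosome 12, 14774383 to 14778002, it is among the low members. It had 11.7, 14.8 and 15.1 CPM in DHA replicates 1, 2 and 3, against 8.55, 7.84 and 8.63 CPM in the controls. Every DHA library was above every control library. H2AFJ rose by 0.83 ± 0.13 on the log2 scale, with an adjusted p of 0.00017 in edgeR's test, and it passed under all 15 alternative settings with values from 0.67 to 0.95. Its transcript is 42.6% GC, a content at which the median gene was lower in DHA, with a log2 fold change of -0.27 for the class from 40% to 45%. H2AFV at -0.72, H2AFY at -0.46 and H3F3A at 0.12 belong to the same class. The part of GC content in these changes was not tested.

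H2AFY and H2AFY2 encode the macroH2A histones, which carry a large extra domain and are mostly linked to silent chromatin. The genes lie on chromosome 5, 135333900 to 135399914, and chromosome 10, 70052796 to 70112280. H2AFY had 162, 140 and 161 CPM in DHA replicates 1, 2 and 3, against 234, 211 and 236 CPM in the controls. H2AFY2 had 64.5, 62.8 and 60.7 CPM in DHA replicates 1, 2 and 3, against 84.5, 74.3 and 81.9 CPM in the controls. Both were lower in every DHA library than in any control library. H2AFY fell by 0.46 ± 0.08 (adjusted p = 0.000592, edgeR) and H2AFY2 fell by 0.26 ± 0.07 (adjusted p = 0.0097, edgeR) on the log2 scale. The GC and length offset took H2AFY to -0.05 with the call lost and H2AFY2 to -0.62, and the call of H2AFY2 ended without the DHA library of replicate 3, at an adjusted p of 0.0515.

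The macroH2A pair has 2 limits of its own. The annotated exons of H2AFY cover 17.7 kb over 20 transcripts, so its length in the offset is that of the annotation rather than of the expressed message. Exons of H2AFY2 overlap those of AIFM2 on the opposite strand, which had 45.1 to 53.2 CPM in DHA and 45.8 to 51.1 CPM in control libraries; no source used here gives the strand setting, so their reads may not be separated. The count ratio of H2AFY to H2AFY2 was 2.51, 2.23 and 2.66 in DHA replicates 1, 2 and 3 and 2.77, 2.84 and 2.88 in the controls, which do not overlap. Its log2 difference was -0.20 (exact permutation test, p = 0.1, adjusted 0.167), and -0.13 without the DHA library of replicate 2.

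H3F3A and H3F3B encode the same protein, histone H3.3, which replaces canonical H3 in transcribed genes and at telomeres. They lie on chromosome 1, 226061851 to 226072001, and chromosome 17, 75776434 to 75785893. H3F3B had 801, 802 and 778 CPM in DHA replicates 1, 2 and 3, against 707, 652 and 686 CPM in the controls. Its DHA libraries all lay above its controls, and their spread was narrow, with an SD of 13.8 CPM around a mean of 793 CPM, against a control mean of 682 CPM (n = 3). H3F3B rose by 0.32 ± 0.07 on the log2 scale, with an adjusted p of 0.00204 in edgeR's test, and it passed under all 15 alternative settings with values from 0.22 to 0.41. UNK, whose exons overlap those of H3F3B on the opposite strand, had 59.9 to 62.3 CPM in DHA and 63.7 to 70.4 CPM in control libraries.

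H3F3A was counted at a far lower level. It had 7.43, 5.28 and 7.84 CPM in DHA replicates 1, 2 and 3, against 7.08, 6.77 and 6.23 CPM in the controls, and the groups overlapped. The log2 fold change was 0.12 ± 0.17, with an adjusted p of 0.559 in edgeR's test, and it was 0.32 (adjusted p = 0.0702) without the DHA library of replicate 2 and 0.02 (adjusted p = 0.93) without that of replicate 3. More reads were counted for a processed pseudogene of it, H3F3AP4 on chromosome 2, at 82.6, 68.9 and 82.9 CPM in DHA replicates 1, 2 and 3 and 98.5, 109 and 96.9 CPM in the controls. A further copy, H3F3AP6 on chromosome 4, had 7.16, 4.62 and 7.77 CPM in DHA replicates 1, 2 and 3 and 9.03, 8.22 and 6.71 CPM in the controls. Reads of H3F3A and of these near-identical copies may be divided between them, so the level and the direction of H3F3A are uncertain. Summed over H3F3A, H3F3AP4 and H3F3AP6, a sum chosen after seeing the data, the level was 97.2, 78.8 and 98.5 CPM in DHA replicates 1, 2 and 3 and 115, 124 and 110 CPM in the controls, and the log2 fold change was -0.25 ± 0.10 (adjusted p = 0.0428, edgeR). The count ratio of H3F3B to H3F3A, 99.2 to 152 in DHA and 96.3 to 110 in control libraries, carries the same limit (log2 difference 0.21, exact permutation test, p = 0.5, adjusted 0.6, and 0.02 without the DHA library of replicate 2).

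Among other histone variants, CENPA, the centromeric form of H3, had 16.5, 22.6 and 16.5 CPM in DHA replicates 1, 2 and 3 and 20.9, 21.5 and 26.5 CPM in the controls, and did not pass (log2 fold change -0.21 ± 0.14, adjusted p = 0.201, edgeR). H2AFB1, H2AFB2 and H2AFB3 had 0 counts in all 6 libraries. H3F3C, H1FNT and H1FOO stayed under 1 CPM in every library.

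H1FX encodes H1.X, a divergent linker histone, from a single exon, on chromosome 3, 129314771 to 129316277. It had 27.7, 74.3 and 30.1 CPM in DHA replicates 1, 2 and 3, against 19.3, 22.5 and 31.6 CPM in the controls. The DHA library of replicate 2 stood far above all others, and the other DHA libraries lay within the range of the controls. The log2 fold change was 0.94 ± 0.31, with an adjusted p of 0.0207 in edgeR's test, but 0.38 ± 0.16 and an adjusted p of 0.0545 (edgeR) without that library. The call was also lost without the control library of replicate 1 (0.79, adjusted p = 0.0849, edgeR) or of replicate 2 (0.87, adjusted p = 0.0789, edgeR). With the GC and length offset it was 0.09 ± 0.24, and the call held under 8 of 15 alternative settings. Of 11143 genes with a mean of at least 5 CPM, those with the most similar profile over the 6 libraries were MTATP6P1, CTU1 and SAC3D1, at root mean square distances of 0.096, 0.099 and 0.107 (log2). MTATP6P1 had 269, 649 and 278 CPM in DHA replicates 1, 2 and 3 and 202, 210 and 261 CPM in the controls. CTU1 had 10.5, 29.2 and 10.3 CPM in DHA replicates 1, 2 and 3 and 5.65, 7.72 and 11.4 CPM in the controls. The choice by profile fixes these likenesses. GC content was 43.9% for MTATP6P1, 68.2% for CTU1 and 69.2% for SAC3D1.

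Between H2AFX and H2AFZ the count ratio was 5.63, 3.02 and 6.19 in DHA replicates 1, 2 and 3 and 4.09, 3.93 and 4.43 in the controls, which overlap, with a log2 difference of 0.19 (exact permutation test, p = 0.6, adjusted 0.6). That difference was 0.51 without the DHA library of replicate 2 and -0.01 without that of replicate 3.

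**Figure D3:**
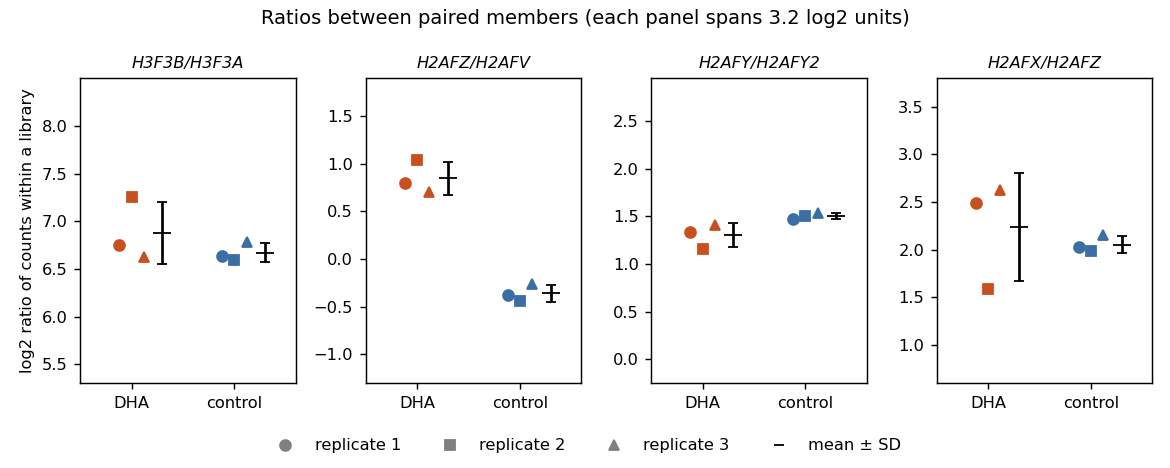
The log2 ratio of counts between 2 members in each library (y axis, each panel spanning 3.2 log2 units), for 3 DHA and 3 control libraries, with a bar for the mean ± SD. H2AFZ/H2AFV sits between 0.70 and 1.04 in DHA and between -0.44 and -0.26 in control libraries, with no overlap.

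**Figure D4:**
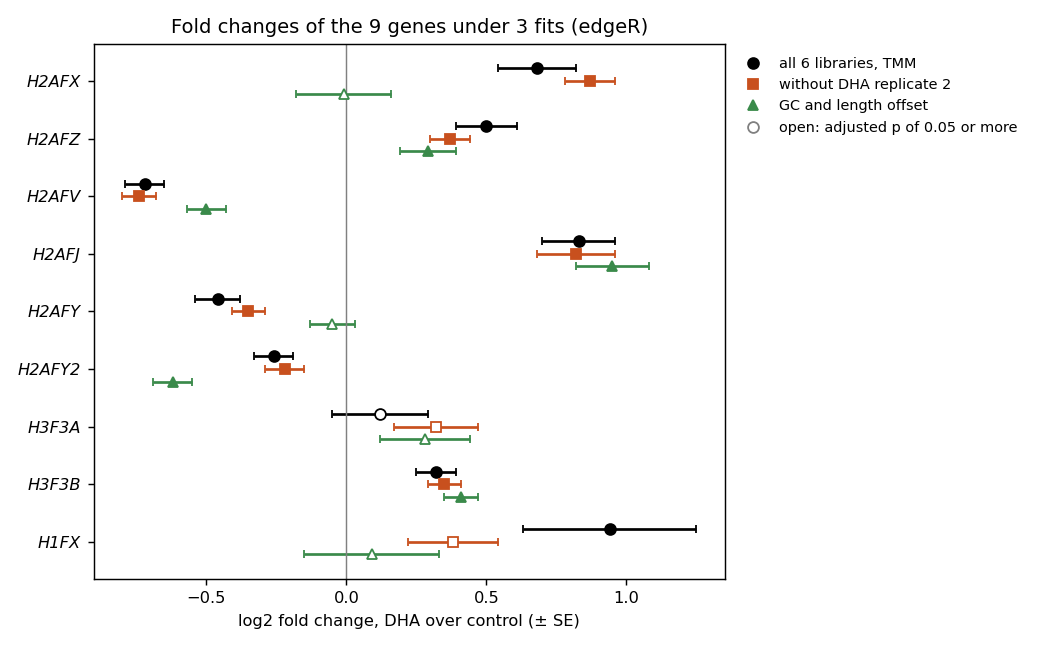
The log2 fold change of DHA over control (x axis, ± SE) of each gene from edgeR with all 6 libraries, with DHA replicate 2 left out, and with an offset for GC and length, with open symbols at an adjusted p of 0.05 or more. H2AFZ, H2AFV, H2AFJ, H2AFY2 and H3F3B keep their side of 0 with filled symbols in all 3 fits, H2AFX and H2AFY come close to 0 with the offset, and H1FX drops to 0.38 without that library.

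Levels between genes can be compared only per length. In CPM per kb of annotated exon, H2AFX was the highest in both groups, at 399 ± 77.1 in DHA and 266 ± 38.4 in control libraries (SD, n = 3). It was followed by H3F3B at 129 ± 2.25 in DHA and 111 ± 4.56 in control, and by H2AFZ at 59.2 ± 11.3 in DHA and 44.8 ± 3.83 in control libraries. Next in DHA were H2AFY2 at 31.7 ± 0.948 in DHA and 40.5 ± 2.68 in control, H1FX at 29.2 ± 17.4 in DHA and 16.2 ± 4.22 in control, H2AFV at 15.8 ± 1.06 in DHA and 27.8 ± 0.998 in control, and H2AFY at 8.72 ± 0.700 in DHA and 12.8 ± 0.787 in control libraries. In control libraries H2AFV lay above H1FX by more than their spread. H1FX did not differ from H2AFY2 or H2AFV beyond its spread in DHA, nor from H2AFY in control libraries, where H2AFY2 and H2AFZ did not differ beyond theirs. H2AFJ and H3F3A were the lowest as counted, at 4.14 ± 0.556 and 2.18 ± 0.436 in DHA and 2.49 ± 0.129 and 2.13 ± 0.135 in control libraries. Reads of H3F3A may be divided with H3F3AP4 and H3F3AP6, so its place in this order is uncertain. Exon lengths are unions over all annotated transcripts, which understates genes with long rare transcripts such as H2AFY and H3F3B at 6.13 kb.

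The factors that carry and place these variants moved both ways. Of 36 listed chaperones and deposition factors, 35 passed the low-count filter, of which 7 were higher, 15 lower and 13 did not pass. That is 20.0% higher and 42.9% lower, against 29.6% and 30.1% of all genes tested. The median log2 fold change was -0.17 against 0.01 over all genes tested. Lower was ANP32E, which removes H2A.Z, at 104, 97.8 and 103 CPM in DHA replicates 1, 2 and 3 and 175, 177 and 180 CPM in the controls (log2 fold change -0.70 ± 0.07, adjusted p = 3.82e-06, edgeR). ATRX, which places H3.3 in heterochromatin, fell by 0.76 ± 0.09, UBN2, a subunit of the HIRA complex for H3.3, fell by 0.72 ± 0.09, and the chromatin protein DEK fell by 0.66 ± 0.08. Higher were ZNHIT1 at 0.56 ± 0.08, the acetyltransferase KAT5 at 0.55 ± 0.09, VPS72 at 0.41 ± 0.09 and the remodeller INO80 at 0.33 ± 0.07. ZNHIT1, KAT5 and VPS72 belong to complexes that place H2A.Z, whose other listed subunits went both ways. Of these, RUVBL2 at 0.26 ± 0.07 and DMAP1 at 0.23 ± 0.08 were higher. EP400 at -0.40 ± 0.07, ACTL6A at -0.28 ± 0.08 and RUVBL1 at -0.23 ± 0.07 were lower. SRCAP at -0.42 ± 0.18, ACTR6 at -0.15 ± 0.12 and YEATS4 at -0.05 ± 0.12 did not pass. These further subunits were named after their values were seen. With the GC and length offset, 10 of the listed genes were higher and 11 lower, against 4478 and 4153 of 15766 genes tested. With the replicate number in the fit as well, 10 were higher and 9 lower, against 4270 and 3988 of all genes. The list leaned to neither side in these fits.

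Of 71 replication-dependent histone genes, 36 passed the low-count filter, which a gene can pass on its DHA level alone, so no count or median is drawn from those that passed. The libraries hold poly(A) RNA, so messages that end in the stem-loop may be missed. A change in the amount of a message cannot be told apart from a change in its share with a poly(A) tail. HIST2H2BE had 52.7, 44.1 and 54.2 CPM in DHA replicates 1, 2 and 3 and 2.69, 2.78 and 2.10 CPM in the controls. HIST1H2BK averaged 39.6 ± 5.09 CPM in DHA and 15.8 ± 1.97 CPM in control libraries, and HIST3H2A 30.4 ± 2.05 CPM in DHA and 13.1 ± 0.186 CPM in control libraries. These 3 had the highest mean CPM of the list over all 6 libraries, a choice to which the DHA level adds. HIST1H2AC, named after its values were seen, rose less, at 20.7 ± 1.77 CPM in DHA and 14.2 ± 2.05 CPM in control libraries. Among linker histones, HIST1H1C averaged 25.5 ± 0.931 CPM in DHA and 10.2 ± 0.795 CPM in control libraries, and HIST1H1E 5.75 ± 0.578 CPM in DHA and 0.869 ± 0.286 CPM in control libraries. HIST1H1A, HIST1H1B, HIST1H1D and HIST1H1T stayed under 1 CPM in every library.

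**Figure D5:**
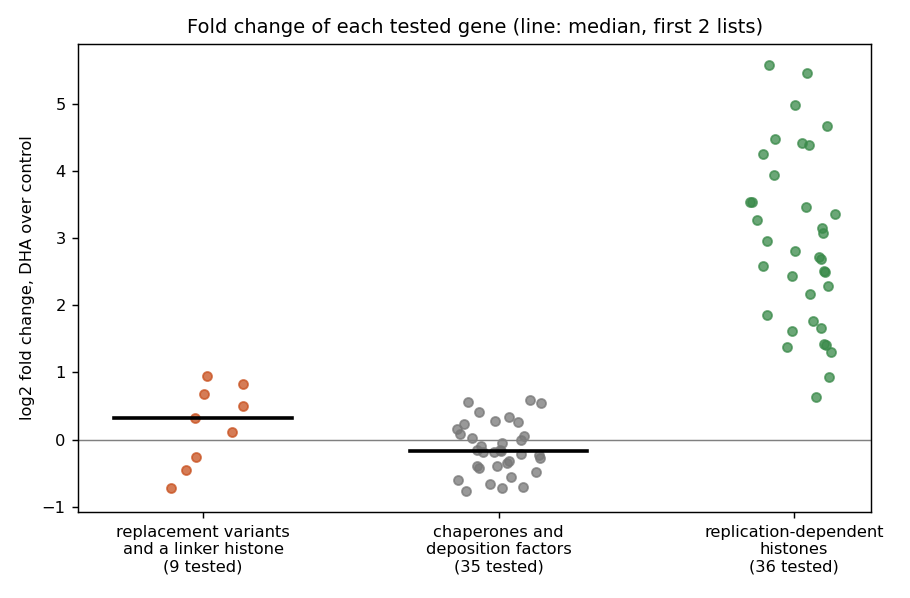
The log2 fold change of DHA over control (y axis) of each tested gene in 3 lists, with a line at the median of the first 2. The 9 replacement variant and linker histone genes and the 35 chaperones and deposition factors scatter on both sides of 0, between -0.76 and 0.94. The 36 replication-dependent histone genes that passed the filter, which the DHA level alone can meet, lie between 0.64 and 5.57. They are read here from poly(A) RNA, which may miss messages that end in the stem-loop.

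Among the 9 genes, H1FX has 1 exon in every annotated transcript, and its log2 fold change was 0.94. It was 0.38 without DHA replicate 2 and 0.09 with the GC and length offset. The part of exon number was not tested, and it was not separated from GC content. Leaving out replication-dependent histones, 214 tested protein-coding genes have 1 exon. Of these, 92 were higher and 43 lower in DHA, with a median log2 fold change of 0.28. Of 12881 tested protein-coding genes with more exons, 3715 were higher and 4260 lower, with a median of -0.02. Replication-dependent histones annotated with more exons were not left out of that class.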

How the data were processed

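Groups follow the treatment labels, with 3 DHA and 3 control libraries. The authors deposited raw read counts per gene; HISAT2 and DESeq2 1.18.1 are named in the submitters' processing notes, and no source used here gives the counting tool, strand setting or build. A further deposited table of normalized values was not used. A table of the authors' own comparison, with log2 fold changes and p-values, was used to look up members. Library totals set counting precision: 3 counts are 0.158 to 0.210 CPM. In the count table, 32 lines of text without a gene were left out, and 1696 lines sharing 143 names, with identical counts per name, were reduced to one per name. Of the genes kept, 39167 were found in GENCODE 29 (GRCh38), 96.9% with the same coordinates and strand.

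DHA was compared with control in edgeR 4.0.16 (R 4.3.3) by the quasi-likelihood test with filterByExpr, TMM and Benjamini-Hochberg adjustment over 15811 genes, threshold 0.05. In simulated counts, this test found 62 of 98 genes changed by 0.5 (log2) and 80 of 93 changed by 1, with 9 false calls among 151. Those counts held few changed genes and no GC trend or outlying library, unlike these data. SE came from the F statistic. The p-values measure only the spread between wells. Alternatives used DESeq2 1.42.0, limma 3.58.1 and mgcv 1.9.3 (GC and length trend per library). One of the 10 members is not reported here. Named genes followed a rule. It took all other members, the 4 smallest adjusted p in each direction of the chaperone list, and all linker histones. It also took the 3 replication-dependent genes with the highest mean CPM over the 6 libraries. The 3 nearest profiles to the member with the largest change were taken as well. In promoters, 9 motifs were searched: beside those described, GGGCGG (5 members, 45.0% of windows), TGACG (3, 24.6%), CACGTG (0, 7.26%), TGACGCA (1, 2.47%), ATTTGCAT (1, 1.77%), TGAGTCA (0, 4.95%) and TGANTCA (0, 7.71%). The members, lists and motifs were chosen with earlier results of these data known. Figures were drawn with matplotlib 3.10.9.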

Additional observations from a re-analysis of the deposited data

How the results depend on the processing

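Under 15 alternatives (other scalings, filters and tools, a replicate block, a GC and length offset, and each library left out), H2AFV, H2AFJ and H3F3B kept their direction and their call. With the GC and length offset, H2AFX was at -0.01, H2AFY at -0.05 and H1FX at 0.09, and 3 members were higher in place of 5; with this offset and the replicate block together, H2AFX was at -0.05, H2AFY at -0.04, H1FX at 0.02 and H2AFZ at 0.28, and 2 members were higher, with 10 listed chaperones higher and 9 lower in place of 7 and 15. H1FX was at 0.92 with DESeq2 (adjusted p = 0.13) and at 0.70 with limma (adjusted p = 0.0698). Leaving out each library in turn gave 0.38 to 1.19 for H1FX, with calls lost without DHA replicate 2 (adjusted p = 0.0545), control replicate 1 (0.0849) and control replicate 2 (0.0789), -0.33 to -0.22 for H2AFY2, and -0.01 to 0.51 for the log2 difference of the H2AFX to H2AFZ ratio. H3F3A summed with 2 pseudogenes was at -0.25. The cause was not tested for any of these.

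Same-numbered libraries did not deviate together (correlations of 0.05, -0.16 and -0.14 over 11144 genes), so the numbers are not taken to pair the wells; the replicate block gave 4361 genes higher and 4545 lower, against 4674 and 4757, and changed the call of 0 members. The 3 libraries per group limit exact tests to p = 0.1, and low counts limit H3F3A and H2AFJ.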
